A study of Mus musculus with 4 samples.

Results

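10 genes that mark the trophectoderm and the placenta were followed in mouse embryonic stem (ES) cells with less Fmr1. They were listed by name and found through the single gene symbol that the platform annotation gives an array feature. They comprise the trophectoderm and trophoblast transcription factors Cdx2, Elf5, Tfap2c, Gata3 and Hand1, the placental genes Tpbpa, Plac1, Prl3d1 and Psg17, and Fabp3. Of the 10 genes, 9 were measured among 19083 genes in all, each by 1 feature. Prl3d1 had no feature of its own symbol and was not analysed here. The cells had been transduced with a lentivirus that encodes GFP together with a short hairpin RNA, directed either at exon 1 of Fmr1 (shFmr1) or at a random sequence (shCT), and were sorted and grown as mixed populations, not clones. Each of 4 Agilent arrays, numbered as replicates 1 to 4, compared RNA of shFmr1 cells with RNA of shCT cells, with Cy5 on the shFmr1 RNA of replicates 1 and 3 and Cy3 on that of replicates 2 and 4. The labels do not state separate cultures, so p-values measure the spread between these arrays, which may be technical.

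The trophectoderm is the outer layer of the blastocyst and gives rise to the trophoblast cells of the placenta. ES cells derive from the inner cell mass and keep this lineage closed. Pou5f1 holds Cdx2 down, and the Elf5 promoter is methylated in ES cells but not in trophoblast stem cells. Forced Cdx2, or loss of Pou5f1, turns mouse ES cells toward trophoblast, so these genes are widely used to look for such cells in ES cultures. FMRP, the product of Fmr1, is an RNA-binding protein that controls translation and mRNA stability.

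Values are log2 ratios from the authors' deposited table, read as shFmr1 over shCT. Neither the log base nor the direction is stated. The direction is the likely one, since the hairpin's target, Fmr1, was negative on each array, at -0.86, -1.65, -1.34 and -1.61 in replicate order. The Fmr1 mean was -1.37 ± 0.36 (SD, n = 4), which is not past the threshold over all genes (limma adjusted p = 0.156). No channel intensities were used, so whether a feature lay above background is unknown. The ES label could not be checked against marker levels either, because ratios give no level. In these RNAs from whole cultures, fewer cells of a type and less RNA per cell cannot be told apart.

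None of the 9 measured genes passed the test for a difference between shFmr1 and shCT cells. Their limma adjusted p-values over all genes ran from 0.973 to 0.997, and 0 of 9 had an unadjusted limma p under 0.05. Among all genes, 0% passed the adjusted threshold and 3.77% had an unadjusted p under 0.05. Of the 9 means, 5 were positive and 4 negative, with a median of 0.03, beside a median of -0.001 over all genes. Of their 36 single values, 18 were positive. Hand1 had the same sign on all 4 arrays and the other 8 genes did not, so 1 of 9 did, beside 11.3% of all genes.

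**Figure D1:**
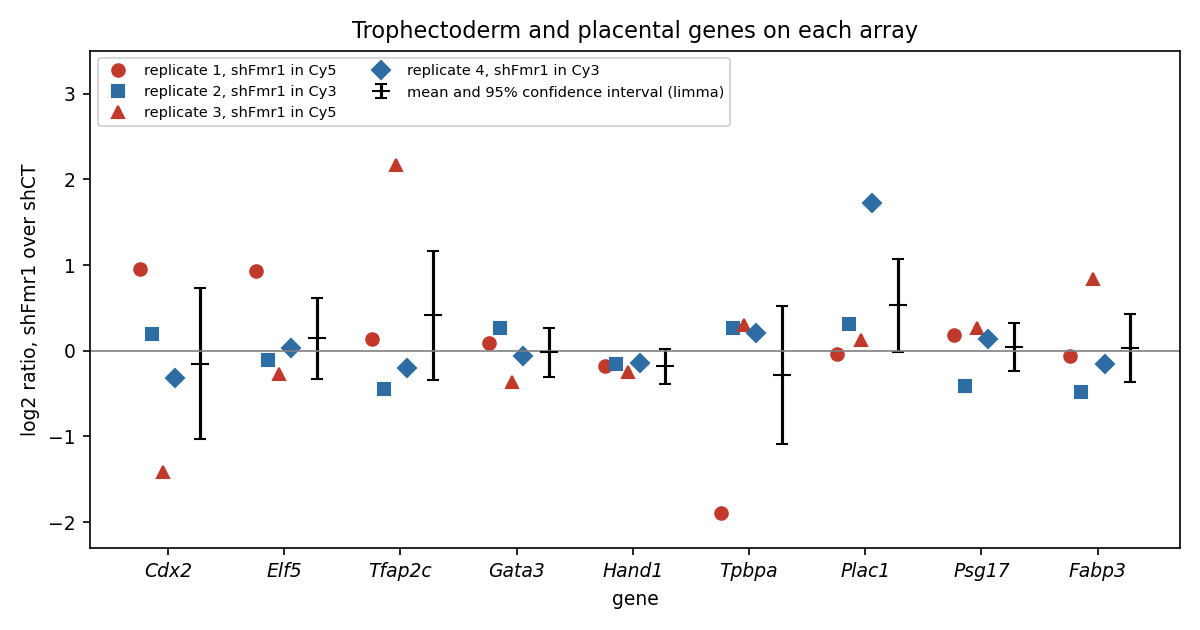
Log2 ratios of shFmr1 over shCT (vertical axis) for the 9 measured genes (horizontal axis), with 1 symbol per array, red for shFmr1 in Cy5 and blue for shFmr1 in Cy3, and the mean with its 95% confidence interval from limma in black. Each interval includes 0, and Cdx2, Tfap2c, Tpbpa and Plac1 each have 1 value beyond 1 in size.

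Among the transcription factors, Cdx2, the caudal-type homeobox factor that establishes the trophectoderm, read 0.95, 0.19, -1.41 and -0.32 in replicate order. Cdx2 was thus above 0 on replicates 1 and 2 and below 0 on replicates 3 and 4. Its mean was -0.15 ± 0.99 (SD, n = 4), with a 95% confidence interval from -1.03 to 0.74. On the linear scale this interval spans 48.8% to 167% of the shCT level, so levels within that span are compatible with these values. Without replicate 3 the mean was 0.44 with the dye term and 0.27 without it.

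Elf5, an ETS-family factor that maintains trophoblast stem cells together with Cdx2 and Eomes, read 0.93, -0.10, -0.27 and 0.03 in replicate order. Replicate 1 was high and the other arrays lay near 0. The mean was 0.15 ± 0.53 (SD, n = 4), with an interval from -0.33 to 0.62, or 79.8% to 154% of the shCT level. Without replicate 1 the Elf5 mean was -0.15 in the fit with the dye term and -0.11 without it. Eomes, a T-box factor of the same circuit, was also highest on replicate 1, at 0.89, and read -0.02, -0.06 and -0.41 on replicates 2, 3 and 4 (mean 0.10 ± 0.55). Replicate 1 therefore held the highest value of Cdx2, of Elf5 and of Eomes, and none of these genes passed the test. Other genes of the lineage did not share this. Tfap2c was highest on replicate 3 (2.16) and Gata3 on replicate 2 (0.26), while Tead4 was lowest on replicate 1 (-0.27). The list of 26 other measured trophectoderm and trophoblast stem cell genes, which holds Eomes, had a median of -0.18 on replicate 1, with 10 positive.

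Tfap2c, which encodes AP-2 gamma and is needed for trophoblast proliferation, read 0.14, -0.45, 2.16 and -0.20 in replicate order. The value of replicate 3 was the largest of all 36 values and stood alone. The mean of 0.41 ± 1.19 (SD, n = 4; interval -0.34 to 1.17) became -0.17 without replicate 3 and without the dye term, and -0.10 with that term kept. On replicate 3 Tfap2c and Cdx2 thus lay on opposite sides of 0, at 2.16 and -1.41.

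Gata3, a zinc-finger factor that acts beside Cdx2 downstream of Tead4, read 0.09, 0.26, -0.37 and -0.06 in replicate order. Its values were scattered closely around 0, with a mean of -0.02 ± 0.27 (SD, n = 4). The interval from -0.30 to 0.26 covers 81.0% to 120% of the shCT level. Tead4, which switches on Cdx2 and Gata3 in the outer cells of the embryo, averaged -0.01 ± 0.20. Gata2, which works with Gata3 in trophoblast, averaged -0.20 ± 0.62 and read -1.10 on replicate 3.

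Hand1, a basic helix-loop-helix factor of trophoblast giant cells that is also expressed in extraembryonic mesoderm and heart, read -0.18, -0.15, -0.25 and -0.14 in replicate order. All arrays were slightly below 0 and nearly equal. The mean was -0.18 ± 0.05 (SD, n = 4), or 88.3% of the shCT level, and the interval from -0.38 to 0.02 includes 0. The unadjusted limma p was 0.0727 (adjusted p = 0.973), since limma draws the small spread of Hand1 toward that of the other genes. An exact permutation test over the signs of the 4 values returned a two-sided p of 0.125, which is the lowest possible with 4 arrays. Its close relative Hand2, a factor of heart and limb, averaged 0.01 ± 0.02.

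Of the placental genes, Tpbpa, the trophoblast-specific protein of the ectoplacental cone and spongiotrophoblast, read -1.89, 0.26, 0.30 and 0.21 in replicate order. Replicate 1 stood far below the other arrays, which lay between 0.21 and 0.30. By Dixon's criterion Tpbpa was the only one of the 9 genes with 1 array apart, beside 6.45% of all genes. The mean was -0.28 ± 1.07 (SD, n = 4; interval -1.08 to 0.53), and without replicate 1 it was 0.26 ± 0.04 with no dye term. Tpbpb, a neighbouring gene of the same family, read 0.08, 0.06, 0.11 and 0.26 and averaged 0.13 ± 0.09, so its replicate 1 value was not low. The promoters of both genes are shown because they are near copies of each other. Over the 250 bases before the gene start, 248 bases aligned and 96.8% of them were identical. The last 150 bases before the start are given 5′ to 3′ from RefSeq (GRCm38.p6, minus strand, chr13:60941937-60942086 for Tpbpa and chr13:60904848-60904997 for Tpbpb), with each CCAAT in capitals.
Tpbpa: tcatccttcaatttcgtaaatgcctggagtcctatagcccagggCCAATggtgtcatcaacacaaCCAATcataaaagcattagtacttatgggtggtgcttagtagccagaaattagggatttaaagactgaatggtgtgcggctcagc
Tpbpb: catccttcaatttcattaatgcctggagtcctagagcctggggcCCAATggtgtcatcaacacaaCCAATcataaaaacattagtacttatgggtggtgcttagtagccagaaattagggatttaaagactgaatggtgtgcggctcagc

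Plac1, an X-linked gene needed for normal placental growth, read -0.04, 0.31, 0.13 and 1.72 in replicate order. Replicate 4 was far above the others. The mean was 0.53 ± 0.81 (SD, n = 4), the highest of the 9 genes, and the interval from -0.01 to 1.07 spans 99.0% to 211% of the shCT level. Its unadjusted limma p of 0.0547 was the lowest of the 9 (adjusted p = 0.973). Without replicate 4 and without the dye term the mean was 0.13 ± 0.18.

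Psg17, a secreted pregnancy-specific glycoprotein of the immunoglobulin superfamily, read 0.18, -0.41, 0.26 and 0.13 in replicate order. Replicate 2 alone was below 0. The mean was 0.04 ± 0.31 (SD, n = 4; interval -0.24 to 0.32). The other 7 measured Psg genes had a median of 0.00 and ranged from -0.09 for Psg27 to 0.21 for Psg16, with 0 of 7 at an unadjusted p under 0.05. Probe sequences were not used here, and cross-hybridisation between genes of the family was not tested.

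Prl3d1, placental lactogen I of trophoblast giant cells, lies in a cluster with the near copies Prl3d2 and Prl3d3, and of these Prl3d2 was measured. Prl3d2 read 0.15, -0.02, 0.20 and -0.04 in replicate order, close to 0 on each array. Its mean was 0.07 ± 0.12 (SD, n = 4; adjusted p = 0.975). The promoters of Prl3d1 and Prl3d2 are shown for how alike these genes are. Of 233 aligned bases among the 250 before the start, 97.9% were identical, and for Prl3d3 the share was 98.3% of 229. The last 150 bases before each start are given 5′ to 3′ from RefSeq (GRCm38.p6, plus strand, chr13:27094039-27094188 for Prl3d1 and chr13:27121545-27121694 for Prl3d2), with TATATA and GATAA in capitals on either strand, GATAA appearing as its reverse complement.
Prl3d1: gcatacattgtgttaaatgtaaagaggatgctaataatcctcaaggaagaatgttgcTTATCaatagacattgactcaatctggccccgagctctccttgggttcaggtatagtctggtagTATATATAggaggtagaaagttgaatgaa
Prl3d2: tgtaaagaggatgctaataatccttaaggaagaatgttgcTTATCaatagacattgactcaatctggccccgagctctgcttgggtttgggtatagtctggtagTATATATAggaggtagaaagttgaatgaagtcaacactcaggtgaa

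The 21 measured genes of the prolactin family, Prl3d2 among them, had a median of 0.03. Most genes of this family are expressed in trophoblast or decidua. Of the 21 genes 14 were positive and 7 negative, from -0.09 for Prl to 0.33 for Prl2b1. Prl7a2 had an unadjusted limma p under 0.05 (0.0459), at 0.00, 0.31, 0.02 and 0.58 in replicate order and a mean of 0.23 ± 0.27. That is 1 of 21, beside 3.77% of all genes, and it did not pass over all genes (adjusted p = 0.973).

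Fabp3, the heart-type fatty acid-binding protein, which carries long-chain fatty acids in the cytoplasm, read -0.07, -0.48, 0.84 and -0.16 in replicate order. Replicate 3 alone was above 0. The mean was 0.03 ± 0.57 (SD, n = 4; interval -0.36 to 0.43). The 8 other measured Fabp genes had a median of 0.01, with 4 positive and 4 negative and 0 of 8 at an unadjusted p under 0.05.

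Most of the 9 genes had a wide spread between arrays. Their SDs ran from 0.05 for Hand1 to 1.19 for Tfap2c with a median of 0.57, beside a median SD of 0.24 over the 10740 genes with 1 feature. The SD lay above that median for 8 of 9 genes. It lay above the 95th percentile of all genes (an SD of 0.53) for 6 of 9, namely Tfap2c, Tpbpa, Cdx2, Plac1, Fabp3 and Elf5, where 5% of all genes do so by construction. These are descriptions of a list chosen with results of these data known, and no test was made. All genes, here and in the shares below, include those averaged over several features, while each of the 9 has 1 feature. The median SD over all genes was 0.21. Among the other lists the median SD was 0.50 for simple epithelial keratins, 0.38 for fibroblast markers, 0.36 for primitive endoderm markers, 0.29 for other trophectoderm genes, 0.23 for differentiated trophoblast genes, 0.17 for the pregnancy-specific glycoprotein family and 0.16 for the prolactin family.

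Of the 36 values, 4 were beyond 1 in size, which is 11.1%, beside 1.07% of all values of all genes. They were those of Tpbpa on replicate 1, of Cdx2 and Tfap2c on replicate 3 and of Plac1 on replicate 4. So 4 of 9 genes had such a value, beside 4.05% of all genes, and 0 of 9 had more than 1. Without its farthest array, replicate 3, Cdx2 still had an SD of 0.64. Each gene has 1 feature, so no second feature could be set against these values, and whether they come from the RNA or from the spot was not tested. A 95% confidence interval wholly between -1 and 1 was reached by Elf5, Gata3, Hand1, Psg17 and Fabp3, or 5 of 9, beside 98% of all genes. Such an interval leaves out a doubling or a halving of the measured ratio only, since whether a feature lay above background is unknown.

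**Figure D2:**
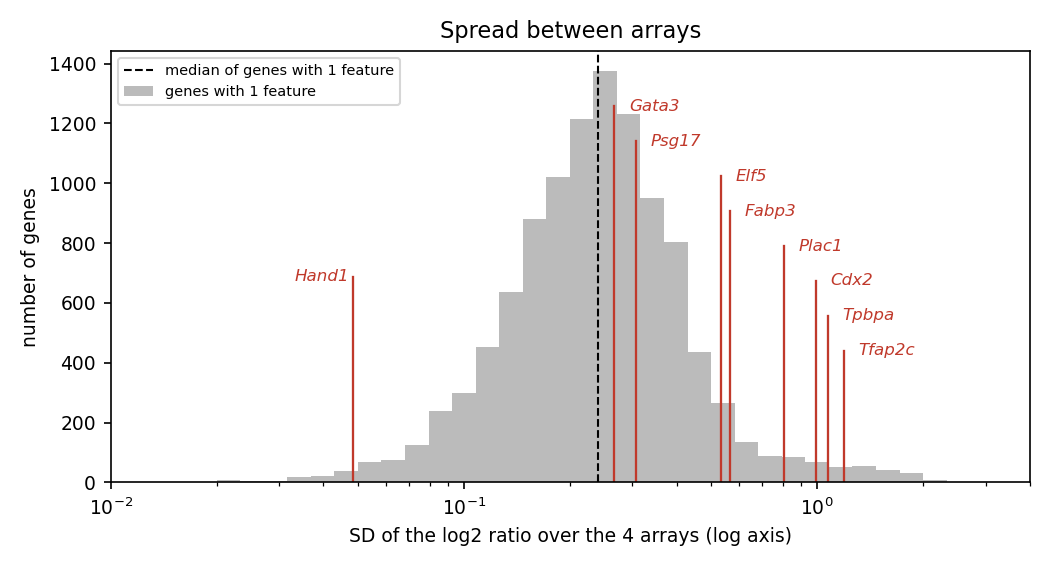
Histogram of the SD of the log2 ratio over the 4 arrays (log axis) for the 10740 genes with 1 feature, with the median (0.24) as a dashed line and the 9 trophectoderm and placental genes as red lines whose height has no meaning. Hand1 lies in the left tail, Gata3 and Psg17 near the median, and the other 6 genes to the right, from 0.53 for Elf5 to 1.19 for Tfap2c.

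The dye effect of the same fit had an unadjusted p under 0.05 for 0 of the 9 genes, beside 6.49% of all genes. The lowest limma p, 0.0541, was that of Tfap2c, which averaged 1.15 with shFmr1 in Cy5 and -0.33 with shFmr1 in Cy3. Plac1 averaged 0.04 with shFmr1 in Cy5 and 1.02 with shFmr1 in Cy3 (0.0715), and Fabp3 0.39 and -0.32 (0.0720).

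CpG, the dinucleotide at which mammalian DNA is methylated, was counted in the promoters. RefSeq windows of 250 bases before a gene start were found for 8 of the 10 genes, not for Tfap2c and Hand1, with a pair of starts each for Elf5 and Plac1. Gata3 had 19 CpGs, Fabp3 17 and Cdx2 13, beside a median of 6 over 32851 windows of all genes (quartiles 2 and 16). Tpbpa had 2, Prl3d1 and Psg17 had 3 each, and the windows of Plac1 had 2 and 4. Elf5, although a factor, had 2 at its upstream start and 8 at its downstream start. The windows of the placental genes thus lay below the median, those of Gata3, Fabp3 and Cdx2 above it and those of Elf5 on either side, and no test was made between them. The windows with the most CpGs, that of Gata3, and among the fewest, the upstream one of Elf5, are shown for their last 150 bases before the start, 5′ to 3′, with each CpG in capitals (RefSeq, GRCm38.p6, chr2:9878601-9878750 on the minus strand and chr2:103411948-103412097 on the plus strand).
Gata3: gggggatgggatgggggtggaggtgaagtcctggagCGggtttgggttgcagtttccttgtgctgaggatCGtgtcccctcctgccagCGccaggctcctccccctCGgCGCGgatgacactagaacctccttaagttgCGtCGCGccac
Elf5: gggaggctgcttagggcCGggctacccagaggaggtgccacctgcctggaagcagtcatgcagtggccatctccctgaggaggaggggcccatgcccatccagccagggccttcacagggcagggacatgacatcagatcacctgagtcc

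Short motifs known for trophoblast factors were searched for on both strands of the 250 bases. GATAA, read by GATA factors, occurred in 4 of the 10 windows (Elf5, Plac1, Prl3d1 and Psg17), beside 22.6% of all windows. GCCNNNGGC, read by AP-2 factors, occurred in those of Cdx2, Gata3 and Tpbpa (13.7% of all). GGAATG, read by TEAD factors, occurred in 1, an Elf5 window (12.6% of all). CCAAT occurred in those of Cdx2 and Tpbpa (33.8% of all), and TATATA, a form of the TATA box, in those of Plac1 and Prl3d1 (5.25% of all), while TATAAA was in 0 of 10 (12.4% of all). Matches of TATATA and TATAAA can overlap. A match is a description of the letters only.

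**Figure D3:**
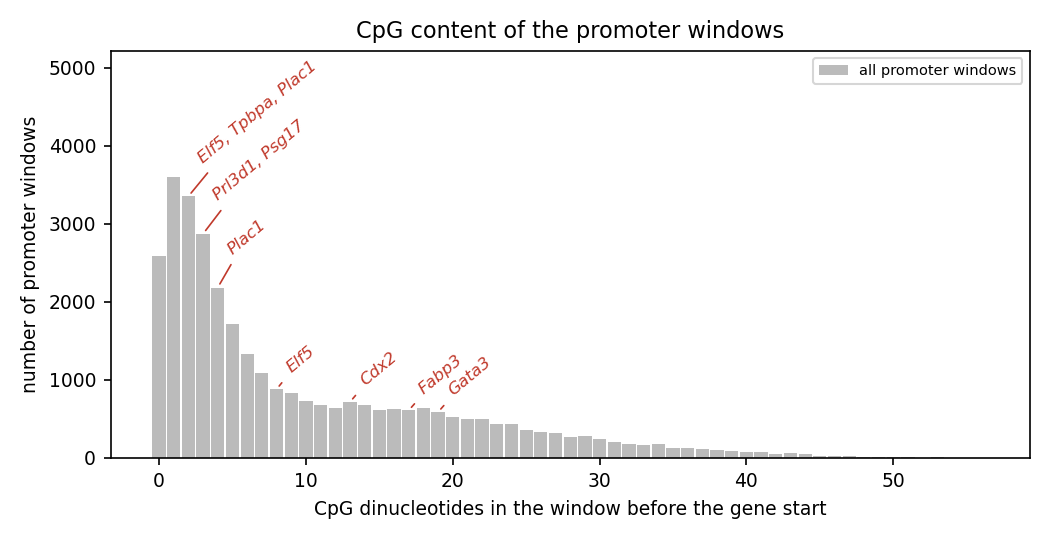
Number of RefSeq promoter windows (vertical axis) by the count of CpGs in the 250 bases before the gene start (horizontal axis), with the windows of the trophectoderm and placental genes named in red. Tpbpa, Prl3d1, Psg17 and Plac1 lie at 2 to 4 CpGs, Cdx2, Fabp3 and Gata3 at 13 to 19, and Elf5 at 2 and 8.

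Other genes of the trophoblast lineage were set beside the 9. Of 26 measured genes of trophectoderm and trophoblast stem cells outside the 9, 13 were positive and 13 negative, with a median of 0.01. In this list 1 gene was higher and 2 were lower at an unadjusted limma p under 0.05, or 3 of 26 beside 3.77% of all genes, and 0 passed over all genes. The higher one was Aqp3, a water and glycerol channel of the trophectoderm (0.50, 0.22, 0.58 and 0.05 in replicate order, mean 0.34 ± 0.25). The lower ones were Rhox9, a homeobox gene of placenta and gonad (-0.92, -0.40, -0.42 and -0.13, mean -0.47 ± 0.33), and Bmp8b, a BMP ligand of the extraembryonic ectoderm (-0.87, -0.30, -0.64 and 0.16, mean -0.41 ± 0.45). Their adjusted p-values were 0.973. Of 32 genes of differentiated trophoblast, 14 were positive and 18 negative with a median of -0.02. Ctsr, a placental cathepsin, alone had an unadjusted limma p under 0.05 (0.0437), or 1 of 32 beside 3.77% of all genes. Ctsr read 0.81 and 1.03 with shFmr1 in Cy5 and -0.57 and -0.26 with shFmr1 in Cy3.

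The simple epithelial keratins, structural genes of the trophectoderm that many other epithelia share, were below 0 beside these near-0 values. Krt19, Krt8 and Krt18 averaged -1.10 ± 0.44, -1.16 ± 0.61 and -0.82 ± 0.56 and were negative on each array. None of them passed over all genes in the main fit (limma adjusted p = 0.274 for Krt19 and 0.973 for the others). Krt7 averaged -0.16 ± 0.35. An unadjusted limma p under 0.05 was reached by 3 of 4 keratins, beside 3.77% of all genes. Krt19 did pass with quantile normalization (limma adjusted p = 0.0226), but not without the dye term (0.999). With 1 array left out its value ran from -1.25 to -0.92. Its p-values from those fits are not given here, since with the dye term 1 orientation then rests on 1 array. Whether the keratins differ from the 9 genes was not tested.

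Genes that hold the trophectoderm program down in ES cells did not pass the test either. Of 14 such genes, 7 were positive and 7 negative with a median of 0.02. Pou5f1, the factor that represses Cdx2, averaged -0.10 ± 0.16 with an interval from -0.33 to 0.13. Nanog, a core pluripotency factor, read 0.48, 0.13, 0.96 and -0.25 in replicate order, so replicate 4 was below 0 and the other arrays above it. It averaged 0.33 ± 0.52 (0.12 to 0.52 with 1 array left out) and was the only one of the 14 with an unadjusted limma p under 0.05 (0.0348, adjusted p = 0.973). The share is 1 of 14, beside 3.77% of all genes. Of 12 ES cell markers, 6 were positive and 6 negative (median 0.01). Nanog and Lin28a (0.26 ± 0.11) had an unadjusted p under 0.05, or 2 of 12 beside 3.77% of all genes. Of 17 paralogs of the 5 factors, 9 were positive and 8 negative. Tfap2d (0.30 ± 0.18) and Gata6 (-0.29 ± 0.38) had an unadjusted p under 0.05, or 2 of 17 beside 3.77% of all genes. Cdx1 and Cdx4 averaged 0.04 ± 0.12 and 0.14 ± 0.23.

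Several of the 9 genes also mark other tissues, so lists of other cell types were set beside them. Of 16 mesoderm markers, 9 were positive and 7 negative (median 0.01). Wnt3, Fgf8 and Nkx2-5 were lower at an unadjusted limma p under 0.05 (means -0.43 ± 0.22, -0.39 ± 0.34 and -0.30 ± 0.16). They are 3 of 16, beside 3.77% of all genes. Of 13 primitive endoderm markers, 12 were negative (median -0.29), beside 9642 of all 19083 genes. At an unadjusted p under 0.05 there were 8 of 13, beside 3.77% of all genes. From replicate 1 to replicate 4 the median of the list was -0.44, -0.05, -0.44 and -0.14. The lower medians were thus those of replicates 1 and 3, the arrays with shFmr1 in Cy5. With shFmr1 in Cy5 and in Cy3, Rhox5 averaged -1.95 and -0.93, and Cubn -1.70 and -0.33. In the same order Col4a1 averaged -0.70 and -0.08, Sparc -0.91 and -0.12, and Gata6 -0.60 and 0.02. Amn (-0.34 ± 0.09), Foxa2 (-0.44 ± 0.47) and Dab2 (-0.26 ± 0.18) also had an unadjusted limma p under 0.05 and are not given by orientation. The values of Amn differed little between the 4 arrays. The part of dye orientation in the values of the list as a whole was not tested. On replicate 1, where Tpbpa read -1.89, the endoderm markers Rhox5 and Cubn read -2.65 and -2.37. Rhox5 was the lowest of the 13 on that array. Both lay far below the list median of -0.44 there, and the highest marker read 0.09. On replicate 3, where Tpbpa read 0.30, Rhox5 and Cubn read -1.25 and -1.03. Of 10 fibroblast markers, 7 were positive (median 0.19), with list medians of 0.35, 0.21, 0.06 and -0.25. The medians of the 9 genes on the same arrays were 0.09, -0.10, 0.13 and -0.06. None of these markers passed over all genes with all 4 arrays. Without replicate 3 the Rhox5 mean was -1.79 with the dye term and -1.51 without it. The part of these markers in the values of the 9 genes was not tested.

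**Figure D4:**
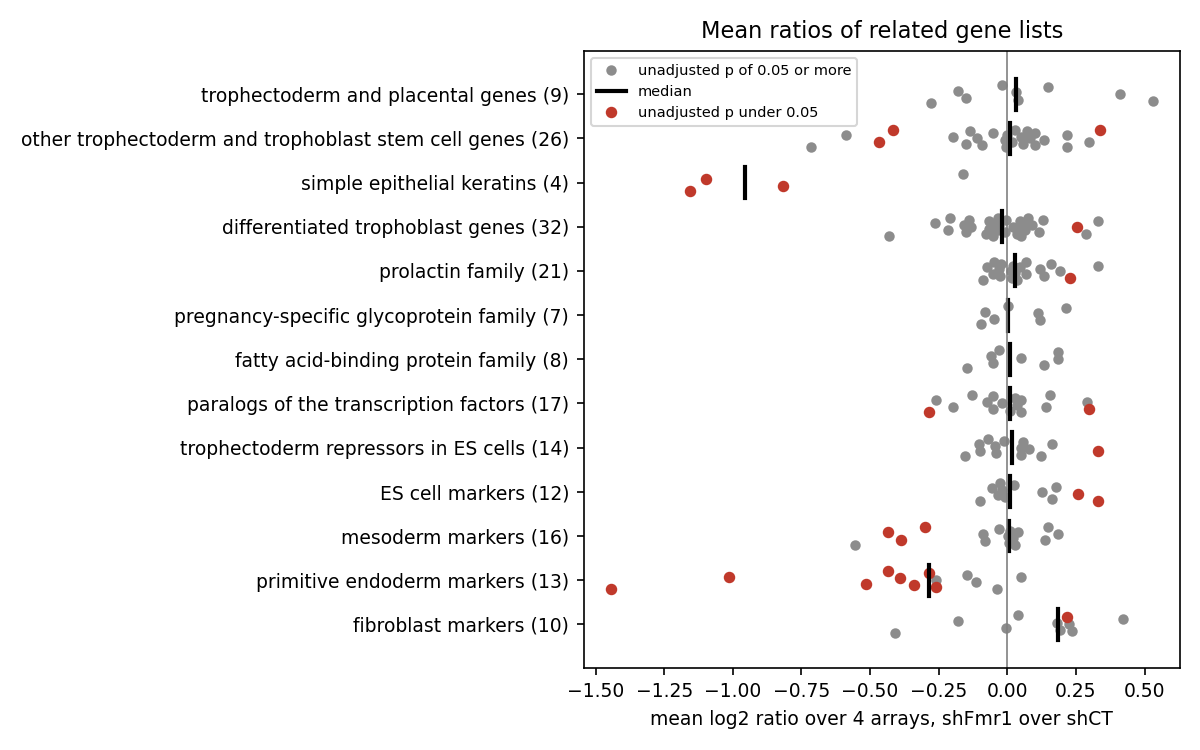
Mean log2 ratio of shFmr1 over shCT over the 4 arrays (horizontal axis) for each measured gene of 13 lists (rows, number of genes in brackets), in red at an unadjusted limma p under 0.05 and in grey otherwise, with the list median as a black bar and vertical offsets for legibility only. The medians of the first list and of the other trophectoderm and differentiated trophoblast lists lie between -0.02 and 0.03, those of the keratins and primitive endoderm markers at -0.96 and -0.29.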

How the data were processed

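RNA of shFmr1 and shCT ES cells was compared on 4 2-channel Agilent arrays, with 0.2 µg of RNA at an integrity number of 9 for each channel, per the labels. The values are log2 ratios that the authors deposited, 1 per feature and array. The sources used here do not give their background correction, normalization, log base or direction. They are read as log2 because the largest absolute value, 5.84, exceeds 4.82, the limit of log10 ratios of 16-bit counts, which does not settle the base. Array medians lay between -0.02 and 0.02, and whether the arrays had been centred is not stated. Their SDs were 0.32 to 0.41. Over genes, arrays correlated at 0.04 and 0.06 within a dye orientation and at -0.05 to -0.02 between orientations. Of 45214 features, 33649 had 1 gene symbol in the platform annotation, 56 several and 11509 none. Those with 1 symbol were averaged per gene and array, and 0 symbols needed updating.

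Each gene was fitted with limma 3.58.1 (lmFit and eBayes, R 4.3.3) on an intercept, the shFmr1 ratio, plus a term for dye orientation, and p-values were adjusted by Benjamini-Hochberg over all 19083 genes at a threshold of 0.05. The script was tested on simulated data. The number of arrays limits the precision. The titles of all 4 arrays share 1 number and differ in the last digit. They may share 1 slide, which the titles do not say, so slide could not be tested. Members and lists were chosen with earlier results of these data known. Named genes are the 9 measured members, Fmr1, Eomes, Tead4, Pou5f1, Prl3d2 and Tpbpb, and up to 4 genes of each list at an unadjusted p under 0.05. Genes named outside this rule, chosen after their values were seen, are Gata2, Hand2, Cdx1, Cdx4, Krt7, Psg16, Psg27, Prl, Prl2b1, Amn, Foxa2 and Dab2. No genes of most similar pattern were sought, since 4 arrays are too few for a correlation. Other fits dropped the dye term or an array, or changed the centring, scaling, normalization, feature summary, variance model or threshold.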

Additional observations from a re-analysis of the deposited data

Results flagged for a closer look

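Of 35 named genes with 4 values each, 1 had an array that lay apart from the other 3 by Dixon's criterion. Chance flags about 1 gene in 20, which would be 1.75 of these. The gene was Tpbpa, at -1.89 on replicate 1 beside values of 0.21 to 0.30. Its gap to the nearest array was 0.961 of its range, above the 95% critical value for 4 values, which 6.45% of all 19083 genes also exceeded. Psg17 on replicate 2 and Plac1 on replicate 4 came next, with ratios of 0.805 and 0.800, and did not reach it.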

How the results depend on the processing

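The number of members past the adjusted threshold was 0 in each of the settings run, for the shFmr1 ratio and for the dye effect. Over all genes 2 passed with quantile normalization (Fmr1 and Krt19), 25 without replicate 1, 87 without replicate 2 and 10 without replicate 3, each with the dye term, so the range with 1 array left out was 0 to 87. It was 0 in the other settings. Members with an unadjusted p under 0.05 numbered 1 with equal scale, quantile normalization or 1 feature per gene (Plac1), 1 without moderation (Hand1) and 0 to 3 with 1 array left out. The lowest adjusted p of a member over the settings was 0.0702, for Plac1 without replicate 2. Replicate 4 is then the only array of its orientation and is assumed to vary like the others.

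Hand1 and Plac1 kept their sign in all 18 settings. Cdx2 turned to 0.143 with quantile normalization. On the arrays with shFmr1 in Cy3 alone, Elf5 turned to -0.0348, Tfap2c to -0.326, Gata3 to 0.0989, Tpbpa to 0.238, Psg17 to -0.141, Fabp3 to -0.321, Ctsr to -0.416, Gata6 to 0.0233, Nanog to -0.0635, Prl3d2 to -0.0329, Eomes to -0.215, Tead4 to 0.0263 and the median of the members to -0.0657. The cause was not tested. With 1 array left out, the values crossed 0 for Cdx2 (-0.740 to 0.441), Elf5 (-0.151 to 0.445), Tfap2c (-0.172 to 0.918), Gata3 (-0.135 to 0.0965), Tpbpa (-0.825 to 0.267), Psg17 (-0.0962 to 0.192), Fabp3 (-0.236 to 0.260), Eomes (-0.162 to 0.335), Tead4 (-0.120 to 0.104), Ctsr (-0.00805 to 0.527) and the median of the members (-0.0342 to 0.192), a summary followed through the settings after seeing the data. Hand1 ran from -0.198 to -0.157 and Plac1 from 0.133 to 0.882. With the sign turned the median is -0.0329.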
